A study of Mus musculus with 21 samples.

Results

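The rodent short interspersed elements (SINEs) are the B1, B2, B3, B4, RSINE, proto-B1 and ID repeats of the mouse genome. They were taken here as the repeat names that begin with B1_, B2_, B3, B4, PB1 or RSINE, or with ID alone or followed by a digit or _. That choice gave 24 of the 1217 repeat names counted beside 24495 gene rows in each library. All 24 passed the filter on low counts in all comparisons, and the lowest count of any of them in any library was 6144. The 3 B1F names fall outside the choice, and with them the number would be 27.

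The counts come from RNA-seq of male germ cells of mice on a mixed strain background, sorted for green fluorescence from an Oct4-GFP reporter out of testes of embryos or pups. All parents were heterozygous for Tex15. Cells with 1 Tex15 allele (HT) and cells with none (KO) came from embryos at day 16.5 (E16.5) or day 18.5 (E18.5) and from pups, and wild-type cells (WT) from pups only. The postnatal age is written both as day 2 and as 2.5 days in the labels and is called D2.5 here. Each of the 7 groups held 3 biological replicates, all cells of all groups carried the reporter, and the labels do not say whether a library pooled several animals. The comparison of KO with HT and WT asks whether repeat RNA differs when Tex15 is missing. TEX15 is known as a protein of male germ cells needed for meiosis and for silencing of transposons.

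SINEs are short retroposons that encode no protein and depend on LINE-1 enzymes to be copied. RNA polymerase III can transcribe them from a promoter inside the element, made of an A box and a B box. B1 and its proto-B1 forerunners derive from the 7SL RNA of the signal recognition particle, B2 and B3 from a tRNA, and ID from the gene of the neuronal RNA Bc1 or its relatives, while B4 joins an ID-like and a B1-like part. Many copies lie in introns and untranslated regions of genes, so a count by repeat name does not tell a polymerase III transcript from a copy inside a longer RNA.

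The files hold no SINE consensus, so the mouse gene Bc1, a relative of the ID names, is printed to show what such a name refers to. Its coordinates and sequence are from GRCm38 with the GENCODE M21 annotation, while the counts were made on mm9. Bc1, the likely master gene of ID elements, is a lincRNA gene of 1 exon and 168 bases at chr7:144914470-144914637 on the plus strand. Capitals mark the A box, searched by its last 9 letters GCNNAGTGG, at bases 16 to 24 and the B box, searched as GTTCGNNNC, at bases 58 to 66.
Bc1: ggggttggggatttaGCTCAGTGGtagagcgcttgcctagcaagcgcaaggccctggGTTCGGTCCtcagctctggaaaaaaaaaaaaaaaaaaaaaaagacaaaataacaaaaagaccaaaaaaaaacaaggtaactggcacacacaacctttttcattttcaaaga
Both motifs were searched on both strands, and they do not overlap each other. Of 135207 annotated transcripts, 3.01% hold the A box letters in their first 168 bases, 3.05% the B box letters and 0.0754% both.

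The gene row of Bc1 held 0 to 2 counts per library. The repeat name BC1_Mm, which is not one of the 24, held 7011 to 17018. These values do not show whether the BC1_Mm counts come from the Bc1 gene or from other copies of that repeat.

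Gene counts summed to 6063632 to 11884109 per library and repeat-name counts to 8559227 to 15961899. The 24 SINE names took 2262539 to 5542731 counts, which is 11.9% to 23.7% of all counts and 21.9% to 35.4% of the repeat counts. Tex15 held 884 to 1830 CPM (counts per 1e6 gene counts) in HT libraries, 3110 to 3750 in WT and 2.93 to 20.2 in KO, so each library matched its label. The summed level of 10 germ cell markers was 4150 to 6500 CPM in every library. Summed markers of Sertoli cells (15.8 to 184 CPM), Leydig cells (10.8 to 57.2), stromal cells (26.2 to 673), endothelial cells (57.9 to 216) and macrophages and blood (13.4 to 92.5) were lower. The globin genes Hbb-b1 and Hba-a1 were at 0. How reads with many matches were treated is not known, so that 0 does not measure blood content. In bulk samples a smaller share of a cell type and less RNA per cell cannot be told apart. The library of HT replicate 1 at E16.5 stood apart from the other 5 of its age, with 32.3% of its repeat counts in SINE names.

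The sum of the 24 names is given first, in CPM scaled within each age. At E16.5 the SINE sum was 266280, 220760 and 223640 CPM in the 3 HT libraries and 244300, 224970 and 225020 in the 3 KO libraries. At E18.5 it was 348540, 243710 and 292830 CPM in HT and 333530, 289180 and 327500 in KO. At D2.5 it was 579110, 742400 and 746250 CPM in HT, 464290, 594200 and 715570 in KO, and 698290, 696840 and 619420 in WT. The KO libraries lay within or across the range of their controls at each age. Exact two-sided permutation tests of the sum gave p = 1 at E16.5 (n = 3 and 3), 0.7 at E18.5, 0.3 for KO against HT at D2.5 and 0.4 for KO against WT. With 3 libraries against 3, the smallest p such a test can give is 0.1.

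**Figure D1:**
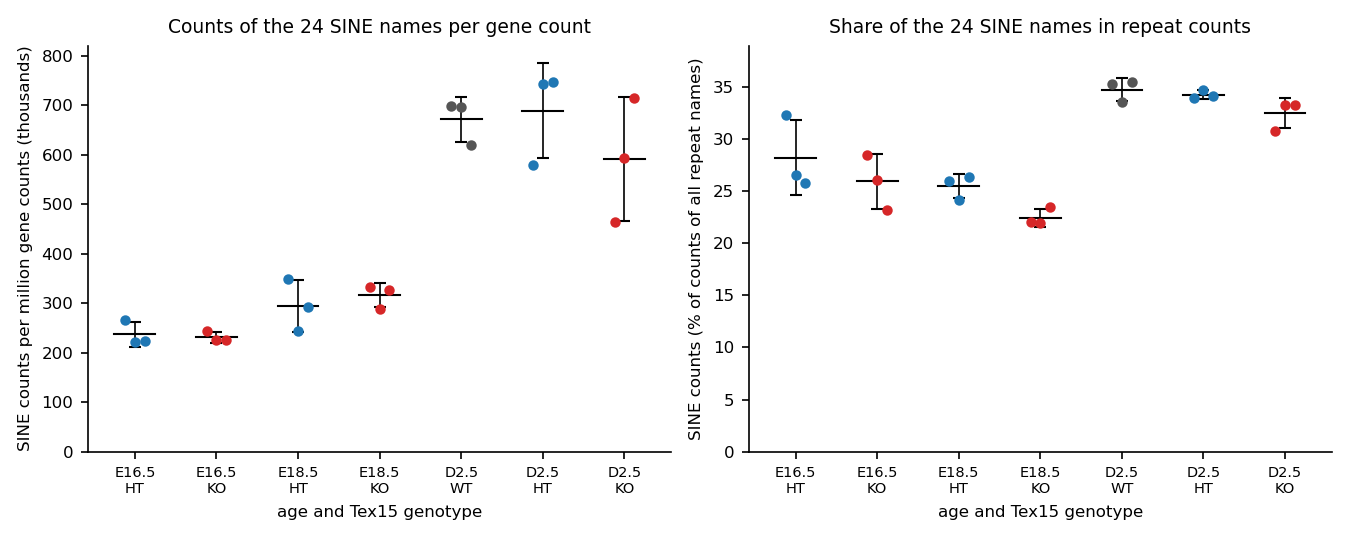
Summed counts of the 24 SINE names in each of the 21 libraries, as CPM of gene counts and as a percentage of all repeat-name counts. Points are libraries, bars the mean and whiskers the SD of 3. KO and control libraries overlap in CPM at each age, while the percentage is lower in every KO library than in every control library at E18.5 and D2.5.

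Per gene count, no SINE name passed the test for a change with the loss of Tex15. In edgeR's quasi-likelihood test with Benjamini-Hochberg adjustment over all repeat names, 0 of the 24 passed at E16.5, where 0% of 1090 repeat names were called. At E18.5 again 0 of the 24 passed, against 10% of 1125 names called. At D2.5, 0 of the 24 passed in KO against HT (1.26% of 1110 names called), in KO against WT (1.44%) and in HT against WT (0%). At an unadjusted p under 0.05 the number was also 0 of 24 in each of these 5 comparisons. On another scale, repeat counts without ribosomal RNA, 11 of 24 were lower in KO at E18.5, where 5.24% of names were called lower and 9.87% higher. That scale was chosen after the data were seen. For no SINE name were the KO and control libraries apart without overlap, a pattern that 11.3% of names showed upward and 1.28% downward at E16.5, and 17.8% and 0.889% at E18.5. At D2.5 it was shown by 2.97% upward and 5.23% downward in KO against HT, by 4.32% and 4.77% in KO against WT and by 2.25% and 1.35% in HT against WT.

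The fitted changes were small and much alike among the names. At E16.5 the median log2 fold change of the 24 was -0.05 (lowest -0.13, B1_Mus2; highest 0.06, B4), with a median SE of 0.11 and a lowest adjusted p of 0.672 in edgeR. The median over all repeat names was 0.14. At E18.5 the SINE median was 0.08 (0.04 for PB1D7 to 0.16 for B4A), with a median SE of 0.19, a lowest adjusted p of 0.721 in edgeR and a median over all names of 0.18. At D2.5 it was -0.22 in KO against HT (-0.26 for B1_Mur3 to -0.15 for ID), with an SE of 0.22 and a lowest adjusted p of 0.79 in edgeR, against -0.18 for all names. In KO against WT the SINE median was -0.20, with a lowest adjusted p of 0.949 in edgeR, and in HT against WT it was 0.03. The widest 95% intervals of a single name ran from -0.48 to 0.24 at E16.5 and from -0.33 to 0.55 at E18.5. At D2.5 they ran from -0.69 to 0.27 (KO against HT). Changes inside these bounds are thus compatible with the fits, and the bounds are not limits of what would have been called. At E18.5 and D2.5 the fit gave each name the spread estimated from names of similar level, so these SEs and p-values are not a measure of how its own 3 libraries scattered.

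At E16.5 and E18.5 the sign of the median rested on single libraries. Without HT replicate 1 the E16.5 median was 0.0695, and without HT replicate 2 the E18.5 median was -0.0549. The D2.5 median in KO against HT ran from -0.368 without KO replicate 3 to -0.0807 without KO replicate 1, below 0 each time.

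Other repeats set a scale for these values. The 5 MIR names, an older SINE group shared by mammals, had medians of 0.08, 0.09 and -0.20 for KO against HT from the youngest to the oldest age, and none passed. The 6 L1Md names, young LINE-1 elements whose enzymes also copy SINEs, had medians of 0.54, 1.22 and 0.38. At E18.5 all 6 were higher in KO, and at D2.5 L1Md_A and L1Md_Gf were. At E18.5 the median over the 24 SINE names was thus below the lowest L1Md value of 0.59.

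**Figure D2:**
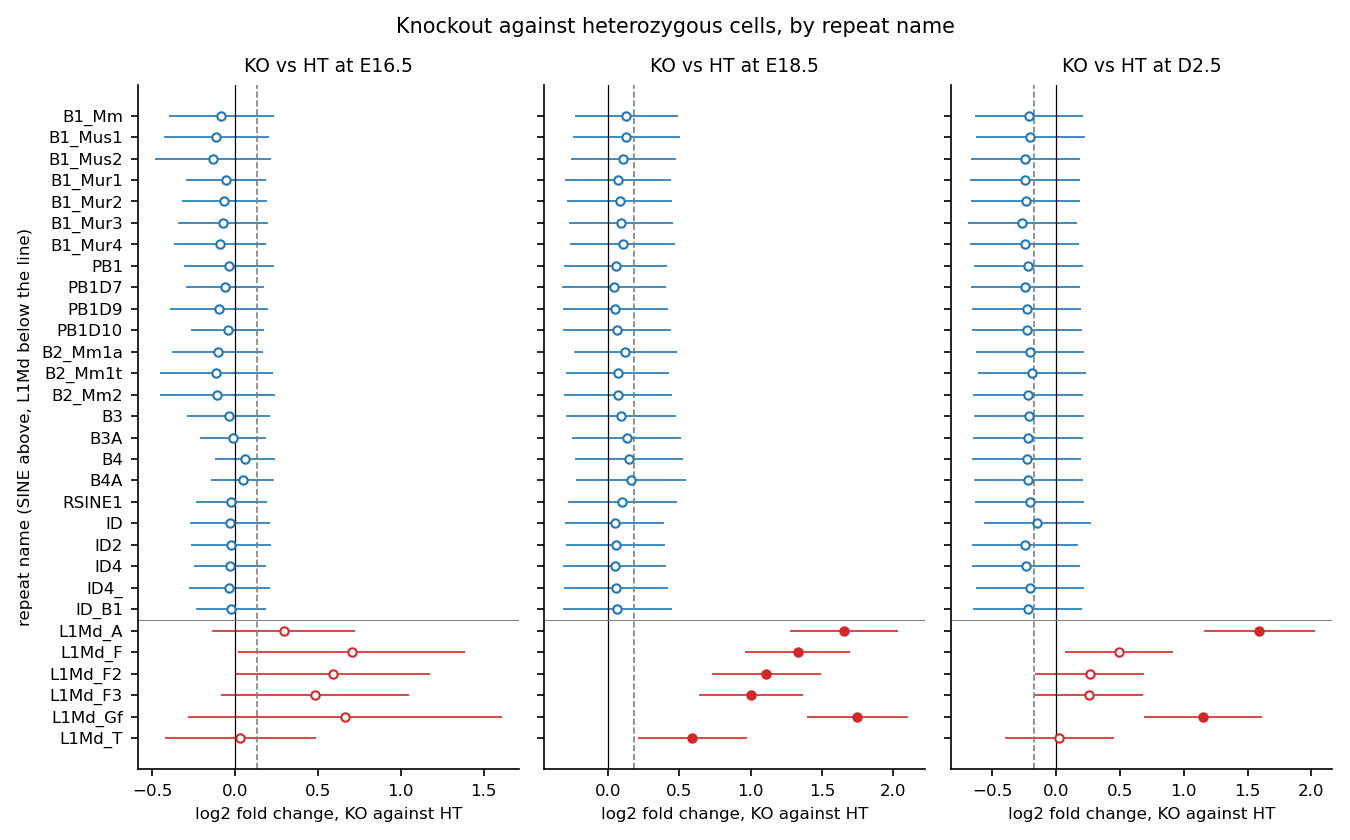
Log2 fold change of KO against HT with its 95% interval for the 24 SINE names and 6 L1Md names at each of the 3 ages. Filled points passed an adjusted p of 0.05 in edgeR, and dashed lines are the median of all repeat names. All SINE points are open and lie within 0.27 of 0, while the L1Md points at E18.5 are filled and lie at 0.59 or above.

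The most abundant name of each subgroup shows how far the libraries themselves varied. Among the 7SL-derived names, the young mouse B1 element B1_Mus1 held 12773, 8255 and 10456 CPM in HT and 12047, 10664 and 11703 in KO at E18.5, which is 0.13 on the log2 scale with an SE of 0.19 (adjusted p in edgeR 0.768). B1_Mur1, an older murine B1, held 10098, 7035 and 8659 CPM in HT and 9286, 8253 and 9509 in KO. PB1D10, a proto-B1 held 16534, 11934 and 14217 CPM in HT and 15371, 13617 and 15582 in KO. In all 3 names the highest and the lowest of the 6 libraries were HT replicates 1 and 2, and the KO libraries lay between them.

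Among the tRNA-derived names the order was the same. B2_Mm2, the most abundant B2, held 17749, 12648 and 16102 CPM in HT at E18.5 and 16789, 15271 and 16772 in KO (log2 fold change 0.07, SE 0.19, edgeR adjusted p = 0.872). B3, an older relative of B2 and the most abundant of the 24, held 53905, 37579 and 45965 CPM in HT and 51387, 44392 and 50738 in KO (0.09, SE 0.20, edgeR adjusted p = 0.832). ID_B1, which holds parts of ID and B1, had 27164, 19894 and 23276 CPM in HT and 25310, 22325 and 25975 in KO. The KO values again lay inside the HT range for each of them.

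B4A, a B4 element, had the highest E18.5 value among the 24. It held 44575, 30690 and 35377 CPM in HT and 43669, 37196 and 42912 in KO, the log2 ratio being 0.16 with an SE of 0.20 (adjusted p in edgeR 0.721). RSINE1, an old element related to B4, held 37240, 26410 and 31275 CPM in HT and 36214, 30902 and 34670 in KO. Both groups overlapped, with the lowest library in HT.

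At D2.5 the WT libraries added a second control. B3 held 96220, 126070 and 123070 CPM in HT, 118560, 116240 and 104100 in WT and 78860, 98843 and 119840 in KO. The log2 fold change was -0.22 (SE 0.22) against HT and -0.19 (SE 0.22) against WT, with edgeR adjusted p-values of 0.79 and 0.949. B1_Mus1 held 19072, 24060 and 25198 CPM in HT, 22255, 23101 and 20925 in WT and 14407, 19208 and 25751 in KO. KO replicate 1 was the lowest of the 9 libraries for both names, and KO replicate 3 lay inside the range of the controls for B3 and above them for B1_Mus1.

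The effect of Tex15 loss was also compared between ages. In the fit of 18 HT and KO libraries the median difference of the KO effect was 0.14 between E18.5 and E16.5 (0.09 over all names) and -0.31 between D2.5 and E18.5 (-0.36 over all names). By edgeR 0 of the 24 passed in either, where 0.175% and 1.75% of 1144 names were called, and 0 of 24 had an unadjusted p under 0.05. With the replicate number as a block, 7 of 24 were lower for the KO effect at D2.5 minus E18.5, where 25.8% of names were called lower. Same-numbered libraries deviated together at E18.5 but not at D2.5. The first median ran from -0.00337 without E16.5 HT replicate 1 to 0.247 without E18.5 HT replicate 1.

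As a percentage of all repeat counts, SINE names were lower in KO at the later ages. At E18.5 they took 26.0%, 24.1% and 26.4% in HT and 22.0%, 21.9% and 23.4% in KO. At D2.5 they took 33.9%, 34.7% and 34.1% in HT, 35.3%, 33.5% and 35.4% in WT and 30.8%, 33.3% and 33.3% in KO. All KO libraries lay below all control libraries at both ages, by a mean of 22.5% ± 0.858 (SD, n = 3) against 25.5% ± 1.19 at E18.5, and of 32.5% ± 1.43 against 34.3% ± 0.418 in HT and 34.8% ± 1.06 in WT at D2.5. At E16.5 the groups overlapped, with 32.3%, 26.6% and 25.8% in HT and 28.5%, 26.1% and 23.2% in KO. The exact two-sided permutation p was 0.1 in each case without overlap, the smallest that n = 3 and 3 allow, and 0.263 after Benjamini-Hochberg adjustment over 50 such tests. The percentage has all other repeats in its denominator, and at E18.5, 111 of the repeat names rose and 2 fell per gene count, with a median of 0.18 over all names. At D2.5, 13 rose and 1 fell against HT and 16 rose and 0 fell against WT, with medians of -0.18 and -0.11. The KO libraries differed from HT by less than their spread in the SINE sum per gene count.

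Ribosomal RNA names took 17.8% of repeat counts in HT and 20.5% in KO at E18.5, and 2.53% to 3.04% in the groups at D2.5. Without them the SINE percentage at E18.5 was 31.0% ± 0.643 in HT and 28.3% ± 0.846 in KO (SD, n = 3), again without overlap. Scaled to repeat counts without ribosomal RNA, a choice made after the data were seen, 11 of 24 SINE names were lower in KO at E18.5 by edgeR, against 5.24% of names called lower. Their median was -0.16 (-0.20 for PB1D7 to -0.07 for B4A) beside -0.06 over all names and -0.15 for MIR. The 11 are 5 of 5 ID names (ID_B1 among them), 4 of 4 proto-B1 names, B1_Mur1 and B2_Mm2. Scaled to all repeat counts the median was -0.21, with 0 of 24 passing and a lowest adjusted p of 0.0883 in edgeR. The direction at E18.5 thus depends on the scale, above 0 per gene count and below 0 per repeat count.

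Some markers of other cells moved with genotype at E18.5, where 2.14% of genes were called. Of the macrophage and blood markers 2 of 4 tested passed, both higher in KO, and of the endothelial markers 1 of 6, while 0 of 8 Sertoli, 0 of 4 Leydig and 0 of 6 stromal markers passed in edgeR (0, 1 and 1 with an unadjusted p under 0.05). Of the germ cell markers 1 of 10 passed, lower in KO. The summed macrophage and blood markers were 30.1 to 34.1 CPM in HT and 73.0 to 92.5 in KO, with Hbb-b1 and Hba-a1 at 0 in each library. Mrc1, a macrophage receptor, rose from 17.7 to 62.3 CPM (log2 fold change 1.82, edgeR adjusted p = 6.27e-05). Adgre1, also a macrophage marker, rose by 1.43 on the log2 scale (edgeR adjusted p = 0.00883), and the median of the 4 was 0.92. The endothelial receptor gene Tek rose by 0.87 (edgeR adjusted p = 0.0166), with a median of -0.02 over the 6 endothelial markers. The germ cell gene Pou5f1 fell by 0.81 (edgeR adjusted p = 0.0307), with a median of -0.15 over the 10 germ cell markers. Pou5f1 is Oct4, the gene that names the reporter by which all cells were sorted. The summed stromal markers at D2.5 were 168 to 255 CPM in HT, 135 to 396 in WT and 250 to 673 in KO. Their part in the SINE values was not tested.

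From before to after birth the SINE names rose relative to genes. From E18.5 to D2.5, 24 of 24 were higher in HT by edgeR, where 79.1% of 1144 names were called higher, and 24 of 24 in KO, where 70.3% were. The median log2 fold change was 1.73 in HT and 1.45 in KO, above the medians of all names (1.36 and 1.00) and of the 5 MIR names (1.25 and 0.96). On the scale shared by the 18 libraries the ages were apart without overlap for all 24 names in both genotypes, as were 76.6% and 67% of names upward. The size depends on the scaling between ages: gene totals without TMM factors gave medians of 1.23 and 0.957, since dropping them moves each name by -0.50. Age and deposited table cannot be told apart, since each age is a table of its own, and repeat counts took 49.9% to 60.2% of a library at E18.5 and 58.6% to 69.4% at D2.5. The libraries of the 2 ages differed in other ways too. Ribosomal RNA names took 14.4% to 24.3% of repeat counts at E18.5 and 1.97% to 4.36% at D2.5. Gene rows without a count numbered 2359 to 2687 at E18.5 and 7227 to 8279 at D2.5. The gene row of Terc held 40 to 136 counts at E18.5 and 0 to 4 at D2.5. The part of these differences in the rise was not tested.

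B1_Mur2, an older murine B1, rose the most, by 1.88 (SE 0.18, edgeR adjusted p = 8.08e-11) in HT and 1.56 (SE 0.18, 5.57e-09) in KO. Its HT libraries held 8021, 5386 and 6736 CPM at E18.5 and 15218, 18826 and 18701 at D2.5, levels that are scaled within each age. B2_Mm1a, a young B2, rose the least, by 1.01 (SE 0.17, edgeR adjusted p = 3.73e-06) in HT and 0.68 (SE 0.17, 0.000718) in KO. Without TMM factors its rise was 0.51 in HT and 0.19 in KO, where it no longer passed (adjusted p in edgeR 0.426). Its HT libraries held 3670, 3142 and 3538 CPM at E18.5 and 4156, 5084 and 5534 at D2.5. On the scale shared by the 18 libraries, B2_Mm1a ran from 2643 to 3074 CPM in HT and 2821 to 3727 in KO at E18.5, and from 5028 to 6447 and 4217 to 6090 at D2.5, so the ages did not overlap in either genotype. On CPM scaled within each age its KO ranges did overlap, with 3370 to 4403 at E18.5 and 3526 to 5237 at D2.5. The next smallest rises in HT were those of B2_Mm1t (1.42), B1_Mm (1.45), B1_Mus2 (1.55), B4 (1.57), and B4A and B1_Mus1 (1.61 each). The murine B1 names rose by 1.83 to 1.88 and B3 by 1.82.

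Relative to all repeat counts the rise was smaller but kept its sign for most names, with medians of 0.436 in HT (20 higher and 1 lower by edgeR) and 0.584 in KO (21 higher and 0 lower). Of all names 29.5% and 35.1% were called higher on that scale. Without ribosomal RNA names in the total the medians were 0.191 (14 higher, 1 lower) and 0.297 (17 higher, 1 lower), where 18.7% and 21.9% of names were called higher and the medians of all names were -0.18 and -0.15. The name called lower was B2_Mm1a each time, by 0.546 in HT and 0.469 in KO on the last scale. On that scale B2_Mm1t (-0.135 in HT and -0.00656 in KO) and B1_Mm (-0.0905 and -0.0586) were also below 0 but not called.

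**Figure D3:**
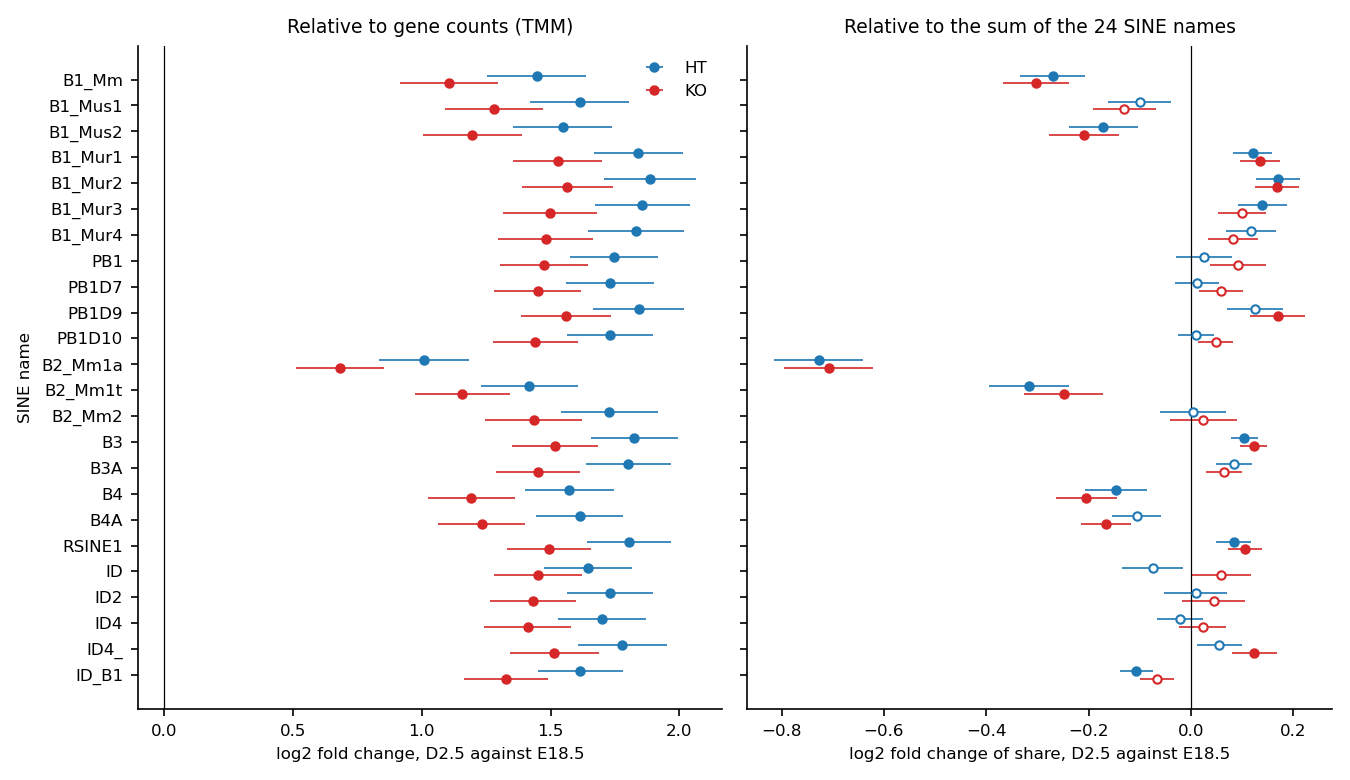
Log2 fold change from E18.5 to D2.5 for the 24 SINE names in HT (blue) and KO (red), with the SE. The left panel is relative to gene counts and the right relative to the sum of the 24 names, and filled points passed an adjusted p of 0.05 in edgeR. All points on the left are above 0, and B2_Mm1a lies lowest in both panels.

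Between E16.5 and E18.5 the result depended on the scale. Per gene count with TMM factors, in HT 0 of 24 passed by edgeR, and 0 had an unadjusted p under 0.05, where 6.64% of names were called higher. Their median was -0.00, against 0.34 for all names and 0.29 for MIR. In KO 1 of 24 passed, where 29.4% were called higher: B2_Mm1a, with a rise of 0.47 on the log2 scale and an SE of 0.17 (adjusted p in edgeR 0.0405). On the scale shared by the 18 libraries, which gave this rise, its KO libraries held 2104 to 2442 CPM at E16.5 and 2821 to 3727 at E18.5. Scaled within each age, they held 2386, 2230 and 2132 CPM at E16.5 and 4403, 3475 and 3370 at E18.5, which are not on the scale of the rise. Each of the 18 fits that leave out 1 library lost the call of B2_Mm1a, with adjusted p from 0.0796 to 0.377 in edgeR. The scaling was recomputed in each fit. Leaving out D2.5 HT replicate 1, which is not part of this comparison, also lowered the rise to 0.37. These fits thus do not separate the part of a single library from that of the scaling. In KO 4 names, B2_Mm1a, B3A, B4 and B4A, were higher without overlap, as were 67% of all names. Dropping TMM factors raises these values by 0.33 in HT and 0.22 in KO, and 4 and 5 names were then higher, where 62.4% and 58.5% of names were. Relative to repeat counts without ribosomal RNA, 4 names were lower in HT and 14 in KO, with medians of -0.23 and -0.27, where 0.612% and 3.76% of names were called lower. With the replicate number as a block, 2 and 6 names were higher, where 41.7% and 54.2% of names were.

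A scale made of the 24 names alone shows which of them gained or lost share. B3 names took 25.6% of SINE counts on average over the 21 libraries, B4 names 17.8%, RSINE1 10.96%, ID names 10.9%, proto-B1 10.04%, murine B1 9.80%, B2 7.64% and mouse B1 7.31%. Most of the ID share was ID_B1, with group means of 7.38% to 7.97% of SINE counts. It is grouped with ID here by its name and with B4 in the families below. No name passed for genotype within this scale. In KO against HT, 0 of 24 passed at E16.5 (0% of names called either way), at E18.5 (15.8% called higher, 0.356% lower) and at D2.5 (3.96% and 0%), and the fitted changes lay between -0.09 and 0.08, -0.06 and 0.06, and -0.04 and 0.07. In KO against WT 0 of 24 passed (6.94% called higher and 0.18% lower), and at an unadjusted p under 0.05 the number in edgeR was 0 in each.

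Of 40 subgroup shares compared between genotypes, 4 were apart without overlap, or 10%. With 3 libraries against 3, random order alone also gives 10%, so this number is no more than expected without any difference. At E18.5 B4 names took 19.5% ± 0.224 of SINE counts in KO and 18.8% ± 0.554 in HT, and proto-B1 names 9.49% ± 0.153 in KO and 9.83% ± 0.132 in HT (SD, n = 3). At D2.5 murine B1 names took 9.96% ± 0.0726 in KO, 10.1% ± 0.0158 in HT and 10.2% ± 0.155 in WT. Both murine B1 comparisons use the same 3 KO libraries. These differences are below 1 percentage point. Each has an exact permutation p of 0.1, the smallest possible at n = 3, and 0.3 after adjustment over 72 tests.

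The composition changed between the ages. From E18.5 to D2.5, 5 names gained share and 6 lost it in HT by edgeR (7.87% of names called higher and 45% lower on this scale), and 6 gained and 6 lost in KO (7.69% and 46.4%). The names B2_Mm1a, B2_Mm1t, B1_Mm and B1_Mus2 lost share in both genotypes, while the other B2 name, B2_Mm2, and the other mouse B1 name, B1_Mus1, did not pass in either. B2_Mm1a took 1.05%, 1.29% and 1.21% of SINE counts in the HT libraries at E18.5 and 0.718%, 0.685% and 0.742% at D2.5, and in KO 1.32%, 1.20% and 1.03% and then 0.759%, 0.683% and 0.732%. The WT libraries at D2.5 held 0.697%, 0.745% and 0.812%. Each D2.5 library was below each E18.5 library, and the log2 change was -0.73 (SE 0.09, edgeR adjusted p = 1.26e-05) in HT and -0.71 (SE 0.09, 9.01e-06) in KO. B2_Mm1t changed by -0.32 in HT and -0.25 in KO, B1_Mm by -0.27 and -0.30, and B1_Mus2 by -0.17 and -0.21.

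The names that gained share in both genotypes were B1_Mur1, B1_Mur2, B3 and RSINE1. B1_Mur2 rose by 0.17 in HT and 0.17 in KO, B1_Mur1 by 0.12 and 0.14, B3 by 0.10 and 0.12 and RSINE1 by 0.08 and 0.11 on the log2 scale, and all 8 of these values passed. B1_Mur3 (0.14) passed only in HT, and PB1D9 (0.17) and ID4_ (0.12) only in KO, differences that were not called when tested: 0 of 24 passed for the change of the KO effect between these ages. B4 lost share in both genotypes (-0.15 in HT and -0.20 in KO), as did ID_B1 in HT (-0.11) and B4A in KO (-0.17). The calls of B2_Mm1a, B1_Mm, B1_Mur1, B1_Mur2 and B3 held in both genotypes in each of the 18 fits that leave out 1 library, that of B2_Mm1t only in HT, and those of B4 and B4A only in KO. In HT the calls of B4, RSINE1 and B1_Mus2 held in 4, 6 and 9 of the 18.

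Between E16.5 and E18.5 the share of B4 rose in HT by 0.19 and those of B1_Mur2, B1_Mur3 and PB1D9 fell by 0.14, 0.15 and 0.20 (21.7% of names called higher and 0.612% lower). These 4 calls were lost without any 1 of 6 libraries: HT replicates 1 and 2 at E16.5, HT replicates 1 to 3 at E18.5 and KO replicate 2 at E18.5. In KO 0 names gained share, where 7.17% of names were called higher, and PB1D9 fell by 0.20 (0.262% called lower), a call that held in 8 of 18 such fits.

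**Figure D4:**
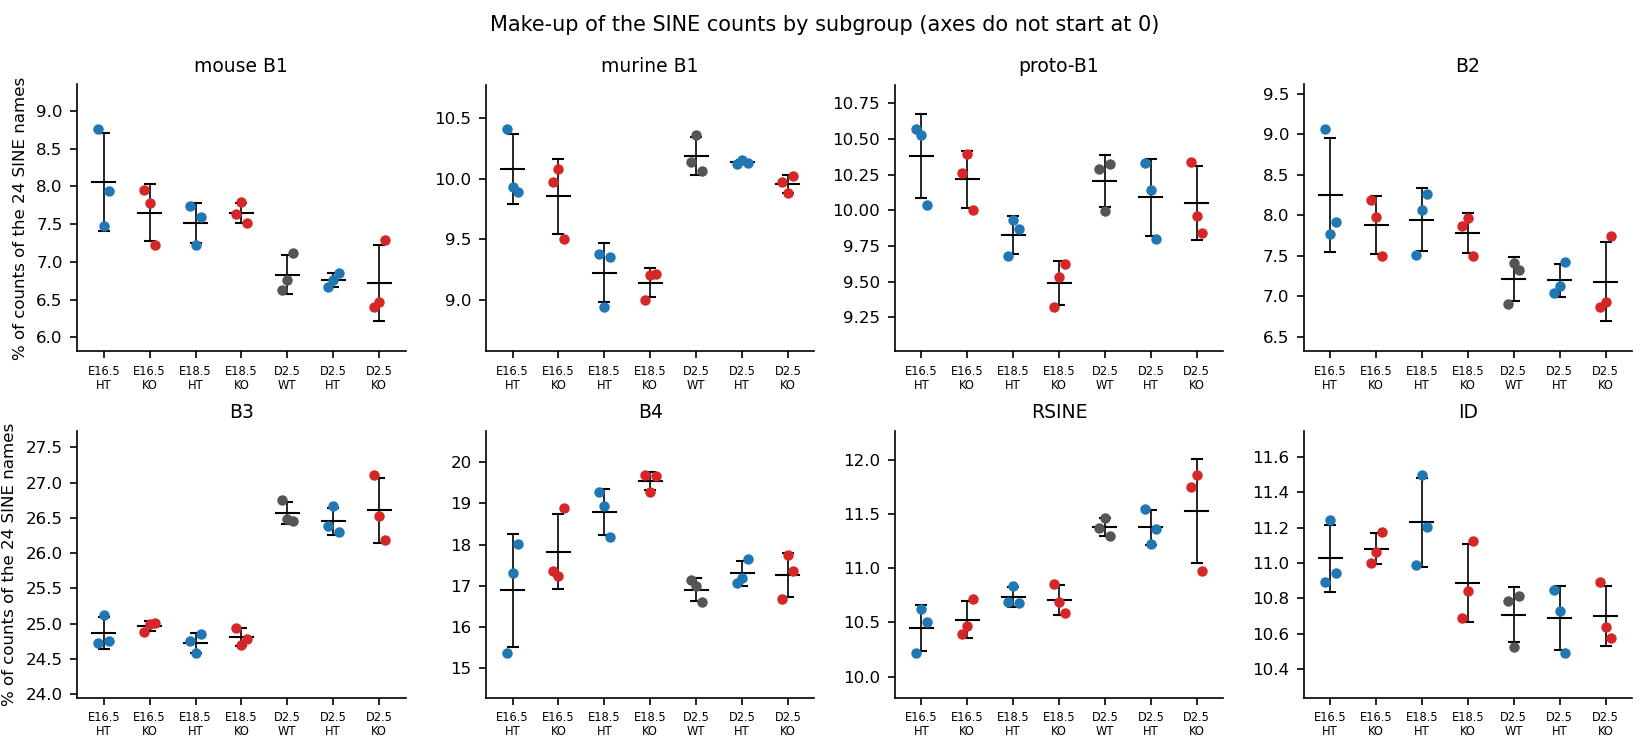
Share of each of the 8 subgroups in the summed SINE counts of each library, in percent, with axes that do not start at 0. Points are libraries and bars the mean of 3. From E18.5 to D2.5 the B3 share in HT goes from 24.7% to 26.5% and that of mouse B1 from 7.51% to 6.76%, while KO and control points of the same age lie close together.

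The authors' second set of tables counts 53 repeat families, of which Alu, B2, B4 and ID hold SINEs. By their names, Alu takes 14 names (B1, B1F and proto-B1), B2 takes 5 (B2 and B3), B4 takes 4 (B4, B4A, RSINE1 and ID_B1) and ID takes the other 4, an assignment made here. Per gene count 0 of 4 passed for genotype in edgeR in each comparison, where 7.69%, 9.62%, 7.69%, 7.69% and 0% of 52 families were called. At E18.5 the log2 fold changes in KO were 0.07 for Alu, 0.08 for B2, 0.09 for B4 and 0.02 for ID, and at D2.5 against HT they were -0.19, -0.16, -0.22 and -0.20. These lie close to the medians over the names on the same scale. The L1 family, for scale, rose by 1.87 on the log2 scale at E18.5 with an SE of 0.19 (adjusted p in edgeR 5.25e-18). This fit used a spread pooled over families, so the SE and p-value do not measure the scatter of the L1 libraries themselves. The L1 family took 86.6% to 96.6% of all family counts in a library, 90.2% to 91.5% in HT and 94.5% to 95.6% in KO at E18.5. These totals are on another scale than the name counts. In D2.5 HT replicate 1, 1183451 Alu counts were 0.353% of the family counts, while all gene and repeat-name counts summed to 17650541. Percentages of family counts are therefore not shares of repeat RNA and cannot be set beside the percentages of repeat-name counts. Scaled to family totals, all 4 SINE families were lower in KO at E18.5, with log2 fold changes from -1.69 (B2) to -1.76 (ID), where 96.2% of families were called lower. At D2.5 all 4 were lower too, where 90.4% were called lower against HT and 92.3% against WT.

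The family tables do not repeat the name counts. The family count was 0.908 to 1.08 times the sum of its names for Alu, 0.553 to 0.645 times for B4 and 0.642 to 0.744 times for ID. For B2 the ratio changed with age. It was 1.13 to 1.23 in the 6 libraries at E16.5, 1.19, 1.58 and 1.40 in HT and 1.47, 1.35 and 1.21 in KO at E18.5, and 0.905 to 1.00 in the 9 libraries at D2.5. All fetal libraries thus exceeded all postnatal ones, and the genotypes overlapped. From E18.5 to D2.5 the B2 family count thus rose by less than the sum of its names.

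**Figure D5:**
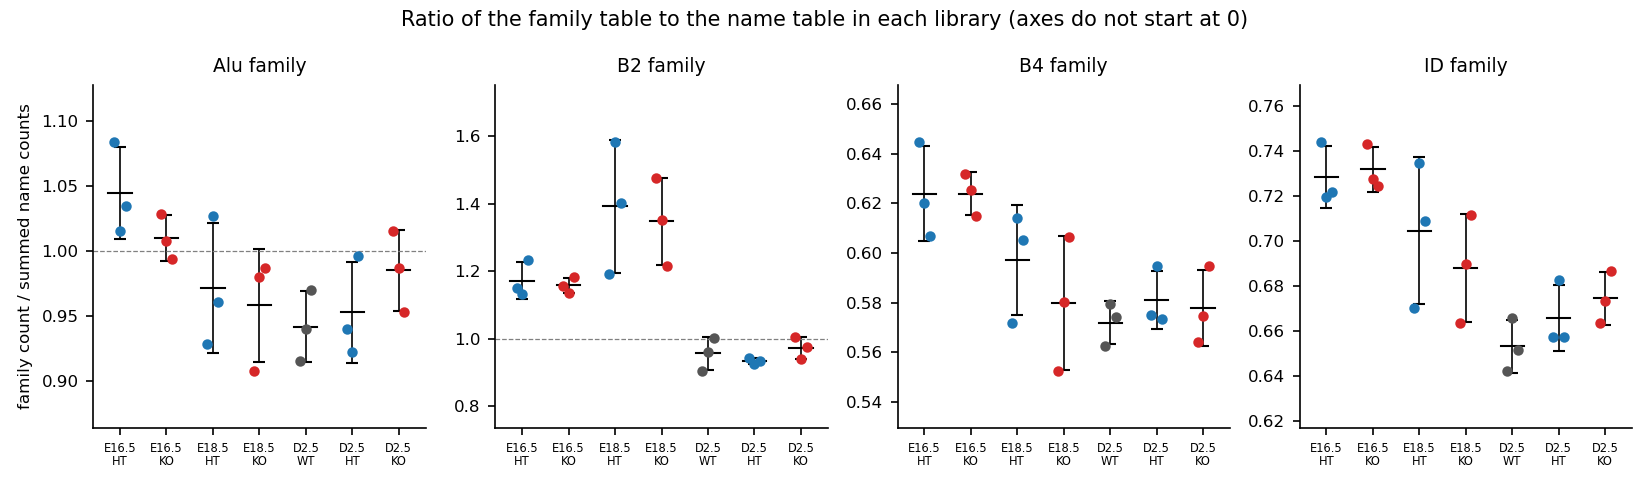
Family count divided by the summed count of the names assigned to it, for Alu, B2, B4 and ID in each of the 21 libraries, with axes that do not start at 0 and a dashed line at 1. B2 lies at 1.13 or above in the fetal libraries and at 1.00 or below at D2.5, while B4 and ID lie below 0.75 throughout.

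The machinery that makes or binds SINE RNA was looked at in 2 gene lists. Of 25 genes of RNA polymerase III and its factors, 0 passed in edgeR in any of the 5 genotype comparisons, where 0.00618% (E16.5), 2.14% (E18.5), 0.153% (KO against HT at D2.5), 0.216% (KO against WT) and 0.00696% (HT against WT) of genes were called. The lowest adjusted p in edgeR was 0.267, and 0, 2, 1, 3 and 1 of them had an unadjusted p under 0.05. The most abundant were Bdp1, a TFIIIB subunit, and Gtf3c2, a TFIIIC subunit, with means of 539 and 402 CPM over the 21 libraries. Of 18 genes whose products bind SINE RNA or repress repeats, 17 could be tested, Bc1 being too low. None passed in KO against HT at any age or in HT against WT, and 1 passed in KO against WT, against 0.216% of genes.

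That gene was Suv39h2, which encodes a histone H3 lysine 9 methyltransferase. It held 294 ± 21.9 CPM in KO and 146 ± 21.1 in WT (SD, n = 3), so KO exceeded WT by 1.01 on the log2 scale with an SE of 0.19 (adjusted p in edgeR 0.0174). In HT it held 156 ± 16.5 CPM, and KO against HT gave 0.92 with an edgeR adjusted p of 0.0529. The call against WT was lost without KO replicate 2, KO replicate 3, WT replicate 1 or WT replicate 2, with adjusted p from 0.0527 to 0.149 in edgeR. The most abundant genes of the list, Ssb, which encodes the La protein that binds polymerase III transcripts, and the chromatin remodeller Hells, had means of 503 and 445 CPM. The signal recognition particle genes Srp9 and Srp14, whose proteins bind 7SL-like RNA, had log2 fold changes of 0.17 and -0.10 in KO at E18.5 (edgeR adjusted p = 0.934 and 0.977).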

How the data were processed

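RNA-seq counts of 21 libraries were used as deposited. Per the labels' protocols, total RNA was extracted with a PicoPure kit, and NuGEN Ovation kits served for amplification and libraries. The submitters' processing notes name STAR, featureCounts, Bowtie, edgeR and mm9, with no versions. No label or file header used here says how reads with many matches were treated, whether strand was used, or whether a read can count for both a gene and a repeat name. The authors deposited whole-number read counts per gene and repeat name, and counts per repeat family, in 1 table of each kind per age.

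Counts were tested with edgeR 4.0.16 in R 4.3.3 (quasi-likelihood, two-sided) using totals and TMM factors of the genes. Names with at least 10 counts in at least 3 libraries were tested, with Benjamini-Hochberg adjustment over all of them and a threshold of 0.05. Fits held the 6 libraries of E16.5, the 6 of E18.5 or the 9 of D2.5, and ages were compared with the 18 HT and KO libraries. The SE is the log2 fold change divided by the square root of F. The prior degrees of freedom for names were 3.51 at E16.5 and infinite at E18.5 and D2.5. For families they were 10.9 at E16.5 and infinite at E18.5 and D2.5. A second fit used the SINE sum as library size. Scripts were tested on simulated data. Figures were drawn with matplotlib 3.10.9.

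Every SINE name was counted, and named with values were those that passed and the most abundant of each subgroup. Others named were chosen after their values were seen. The members and lists were chosen with earlier results of these data known. Alternatives were other scalings and filters, DESeq2 1.42.0, limma-voom (limma 3.58.1), a replicate block and leaving out each library. Same-numbered libraries deviated together at E18.5 (correlations over names 0.120 to 0.146), but not in all pairs at E16.5 and D2.5, and the block called 0 SINE names at E18.5. That replicates were separate animals is not stated beyond "biological", so p-values refer to these samples only. At E18.5 and D2.5 the edgeR p-values of names and families rest on a spread pooled over names or families.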

Additional observations from a re-analysis of the deposited data

How the results depend on the processing

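For the 5 genotype comparisons, 0 of 24 SINE names passed under any of the 17 to 20 settings run for each comparison except the scaling to repeat counts without ribosomal RNA. DESeq2, RLE factors, no filter, a filter of 100 counts and 27 names with B1F changed no SINE count of calls. With repeat-name totals as library sizes the medians were -0.209 for KO against HT at E18.5, 0.436 for HT and 0.584 for KO from E18.5 to D2.5 (1 name lower in HT), -0.265 for KO from E16.5 to E18.5 (0 higher, 1 lower), and -0.0719 and 0.127 for the 2 differences of the KO effect. B2_Mm1a reversed to -0.299 in HT and -0.173 in KO from E18.5 to D2.5. Without ribosomal RNA in the total, the median at E18.5 was -0.158 with 11 lower, and these reversed: B2_Mm2 -0.165, ID_B1 -0.174, B1_Mur1 -0.167, PB1D10 -0.175, ID4_ -0.182, PB1 -0.186, PB1D7 -0.198, ID4 -0.191, PB1D9 -0.185, ID2 -0.187 and ID -0.194. On that scale 4 names were lower in HT from E16.5 to E18.5. In KO 0 were higher and 14 lower there, with a median of -0.267, and these reversed: B3 -0.259, ID_B1 -0.214, B1_Mur1 -0.321, PB1D10 -0.269, RSINE1 -0.182, ID4_ -0.297, PB1 -0.355, PB1D7 -0.305, ID4 -0.264, B1_Mur2 -0.342, B1_Mur3 -0.336, ID2 -0.277 and ID -0.277. From E18.5 to D2.5 it gave 14 higher and 1 lower with a median of 0.191 in HT, and 1 lower with a median of 0.297 in KO, and reversed B2_Mm1t (-0.135 and -0.00656), B1_Mm (-0.0905 and -0.0586) and B2_Mm1a (-0.546 and -0.469). The KO effect at D2.5 minus E18.5 then had a median of 0.0825. Gene totals without TMM gave 4 higher and a median of 0.341 in HT and 5 higher and 0.346 in KO from E16.5 to E18.5, and medians of 1.23 and 0.957 from E18.5 to D2.5. TMM over genes and names gave 0 higher and a median of -0.00948 for KO from E16.5 to E18.5, and 1 fit of genes and names gave 0 higher. The replicate block, where numbers do not pair libraries over all ages, gave 2 higher in HT and 6 higher in KO from E16.5 to E18.5, and 7 lower for the KO effect at D2.5 minus E18.5. For shares of SINE counts the block gave 2 higher and 6 lower in HT and 3 higher and 4 lower in KO from E16.5 to E18.5, and 8 higher in HT from E18.5 to D2.5. For the same shares limma-voom gave 2 higher and 5 lower, 1 higher and 3 lower, and 8 higher. The percentage of all names called is not given for shares in these settings, so the counts cannot be read alone. In the main fit on that scale it was 21.7% higher and 0.612% lower in HT and 7.17% and 0.262% in KO from E16.5 to E18.5. It was 7.87% higher and 45% lower in HT from E18.5 to D2.5. Leaving out 1 library, with the scaling recomputed each time, gave 0 to 0 names higher and medians of -0.022 to 0.177 for KO from E16.5 to E18.5. For shares it gave 0 to 2 higher and 0 to 4 lower in HT and 0 to 3 higher and 0 to 4 lower in KO from E16.5 to E18.5, and 3 to 8 higher and 4 to 7 lower in HT and 3 to 6 higher and 4 to 7 lower in KO from E18.5 to D2.5. Gene lists in KO against WT had 0 to 1 calls. Medians ran from -0.107 to 0.0695 at E16.5, -0.0549 to 0.19 at E18.5, -0.368 to -0.0807, -0.347 to -0.0489 and -0.036 to 0.137 at D2.5 (KO against HT, KO against WT, HT against WT), and -0.204 to 0.0427 for HT from E16.5 to E18.5. The differences of the KO effect ran from -0.00337 to 0.247 and from -0.422 to -0.175. With family totals as library sizes all 4 SINE families were lower in KO at E18.5 (Alu -1.71, B2 -1.69, B4 -1.7 and ID -1.76) and 4 of 4 in both D2.5 comparisons of KO. The cause of these changes was not tested. Each SINE name held at least 6144 counts in each library.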
